A study of Mus musculus with 5 samples.

Results

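Immediate early genes were examined in GFP+ Prx1-derived cells sorted from mouse hindlimb muscle before and after injury. The 10 genes were chosen by name from the 31055 genes of the count tables: *Fos*, *Fosb*, *Jun*, *Junb*, *Atf3*, *Egr1*, *Nr4a1*, *Ier2*, *Ier3* and *Zfp36*. Earlier results of these data were known when they were chosen, so values of all genes set beside theirs serve as description only. Cells were profiled by droplet single-cell RNA sequencing (scRNAseq) in 5 libraries from Prx1Cre;mTmG mice of 10 to 14 weeks on a C57Bl/6 background, in which Cre driven by the Prx1 limb mesenchyme enhancer switches a membrane reporter from Tomato to GFP. The conditions were no injury (d0), 3 and 5 days after a non-stabilized tibial fracture (d3 and d5 post-fracture), and 3 and 5 days after polytrauma (d3 and d5 post-polytrauma), which combines the fracture with mechanical injury of the surrounding muscle. A library mixes the cells of 2 mice, and with 1 library for each condition nothing here tests a difference between conditions. All 95% intervals cover counting error only.

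Immediate early genes are transcribed within minutes of a stimulus, without new protein synthesis, because the factors that switch them on (SRF with its ELK and MRTF partners, and CREB) are already bound or waiting in the cell and are activated through MAP kinases and calcium. Their messengers are short-lived, and many code for transcription factors or for proteins that shut the response off again. In muscle and bone they respond to wounding, growth factors, inflammatory cytokines and mechanical load, and they are also known to be induced while tissue is digested to single cells. All the libraries here came from muscle digested with trypsin and collagenase for 2 h at 37 °C, with freed cells collected every 20 min, so transcripts present in the muscle and transcripts made during isolation cannot be told apart.

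The conditions of 2 libraries were assigned from published cell numbers and not from their deposited labels. The choice sets the direction of 4 of the 5 comparisons. The one deposited as d5 post-fracture stands here for d3 post-polytrauma and the one deposited as d3 post-polytrauma stands for d5 post-fracture. With the deposited labels, all values given for d5 against d3 post-fracture and for d3 post-polytrauma against d3 post-fracture change places, those of gene lists and cell classes included, and so do d5 post-polytrauma against d5 post-fracture and d5 against d3 post-polytrauma. Cells with 350 to 8000 genes, under 20% mitochondrial UMIs (unique molecular identifiers, each marking 1 captured transcript) and at least 1000 UMIs were kept: 29831 of 34439 barcodes, from 1468 cells at d5 post-fracture to 11941 at d5 post-polytrauma. The median depth ran from 3640 UMIs per cell at d0 to 34949 at d5 post-fracture. The libraries used as d0, d3 post-fracture and d3 post-polytrauma shared 405 to 525 cell barcodes in each pair and the 2 d5 libraries shared 944, whereas only 0 to 3 were common to a d5 library and any of the others. The day of injury and this set of barcodes therefore cannot be told apart in comparisons of d5 with d3 or d0. Under the deposited labels one set would hold d0 and both post-fracture libraries and the other both post-polytrauma libraries, so that type of injury and barcode set could not be told apart. A deep cluster of 124 chondrocyte-like cells was found in the library used as d5 post-fracture, and no such cluster in the one used as d3 post-polytrauma. The paper reports its chondrocyte population at d5 post-fracture. The barcode sets and this cluster were not used to assign conditions. FAP/MP markers (fibro-adipogenic and mesenchymal progenitors: *Prrx1*, *Cxcl12*, *Pdgfra*, *Ly6a* and *Cd34*) were all detected in every library, at 933 to 2332 CPM in sum (UMIs of a gene per 1000000 UMIs of the library). The 6 hematopoietic markers summed to 13.1 to 86.7 CPM, highest at d3 post-polytrauma, the 5 endothelial markers to 3.64 to 48.7 CPM, highest at d0, and the 5 myogenic markers to 0.287 to 3.72 CPM. *Itgam* had no UMI at d0, nor had *Pax7* and *Myf5* at d0 and in both post-fracture libraries, nor *Myod1* at d0.

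The DNA before the start sites of these genes is shown as a description, and its part in their levels was not tested. In level, 9 of the 10 genes were lowest in the same library, d3 post-polytrauma, while *Ier3* was lowest at d0. The share of all genes tested that were lowest in each library was not counted. RefSeq windows (GRCm38.p6) running from 250 bases before to 50 bases after the start site were searched for 8 of the 10 genes. *Egr1* was left out of the search by choice, and no such window was found for *Ier2*. The 150 bases before the start are printed for *Fos* (chr12:85473740-85473889, + strand), *Fosb* (chr7:19310046-19310195, - strand), *Nr4a1* (chr15:101266696-101266845, + strand), *Zfp36* (chr7:28379229-28379378, - strand) and *Ier3* (chr17:35821563-35821712, + strand), 5′ to 3′ along the gene, with motif matches in capitals.
Fos: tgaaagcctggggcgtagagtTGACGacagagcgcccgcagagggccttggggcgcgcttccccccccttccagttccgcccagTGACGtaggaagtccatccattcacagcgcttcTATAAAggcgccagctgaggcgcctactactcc
Fosb: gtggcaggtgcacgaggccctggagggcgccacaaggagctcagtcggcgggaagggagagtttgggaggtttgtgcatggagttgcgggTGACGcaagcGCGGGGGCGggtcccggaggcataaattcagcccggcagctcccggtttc
Nr4a1: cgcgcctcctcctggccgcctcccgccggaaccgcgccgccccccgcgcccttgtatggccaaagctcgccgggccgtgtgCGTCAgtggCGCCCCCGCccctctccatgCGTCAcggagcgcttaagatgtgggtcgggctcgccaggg
Zfp36: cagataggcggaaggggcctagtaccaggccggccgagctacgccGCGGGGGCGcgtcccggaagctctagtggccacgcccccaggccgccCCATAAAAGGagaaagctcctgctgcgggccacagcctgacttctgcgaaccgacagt
Ier3: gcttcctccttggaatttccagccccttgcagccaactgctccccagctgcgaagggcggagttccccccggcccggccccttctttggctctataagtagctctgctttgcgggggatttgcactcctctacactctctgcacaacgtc
The CArG box, the site of SRF, was found in 1 of the 8 windows, at -58 to -49 of *Zfp36*, against 1.63% of 32851 windows of this length. The EGR site (GCGGGGGCG or GCGTGGGCG) was found in 3 windows, *Fosb*, *Nr4a1* and *Zfp36*, against 3.47%. The TATA box (TATAAA) was found in *Fos*, at -33 to -28, and in *Junb*, at 1 to 6 after the start site, against 13.6%. Places are counted from the start site of the window. For *Junb* and *Nr4a1*, among others, this is not the start of the gene position printed below. The TATA box of *Junb* lies before the start of its gene position. Neither the full CRE (TGACGTCA, 1.79% of windows) nor the AP-1 site (TGACTCA or TGAGTCA, 5.20%) was in any of the 8. The first letters of the CRE, TGACG, a search added after the sequences had been seen, were in 5 windows, *Atf3*, *Fos*, *Fosb*, *Junb* and *Nr4a1*, against 20.8%. Both strands were searched. TGACG is part of the full CRE, and no match printed above overlapped another. None of these letters was in the *Ier3* or *Jun* window. A match describes the sequence and is not a measured binding site. Sites further than 250 bases before the start site were not searched, so a gene without a match here may have one elsewhere.

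Together the 10 genes took 1.44% of all UMIs at d0, 0.483% at d3 post-fracture, 1.39% at d5 post-fracture, 0.300% at d3 post-polytrauma and 0.823% at d5 post-polytrauma. As a share of UMIs they were thus highest in uninjured muscle and at d5 post-fracture and lowest in both d3 libraries, and polytrauma lay below fracture at the same day. Such a share is not a number of transcripts per cell, since the median depth was 3640 UMIs per cell at d0 and 17963 at d3 post-fracture. For each of the 10 genes the counting intervals of neighbouring libraries, ordered by level, did not overlap. Since the spread between mice is unknown, this separates the libraries and not the conditions.

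**Figure D1:**
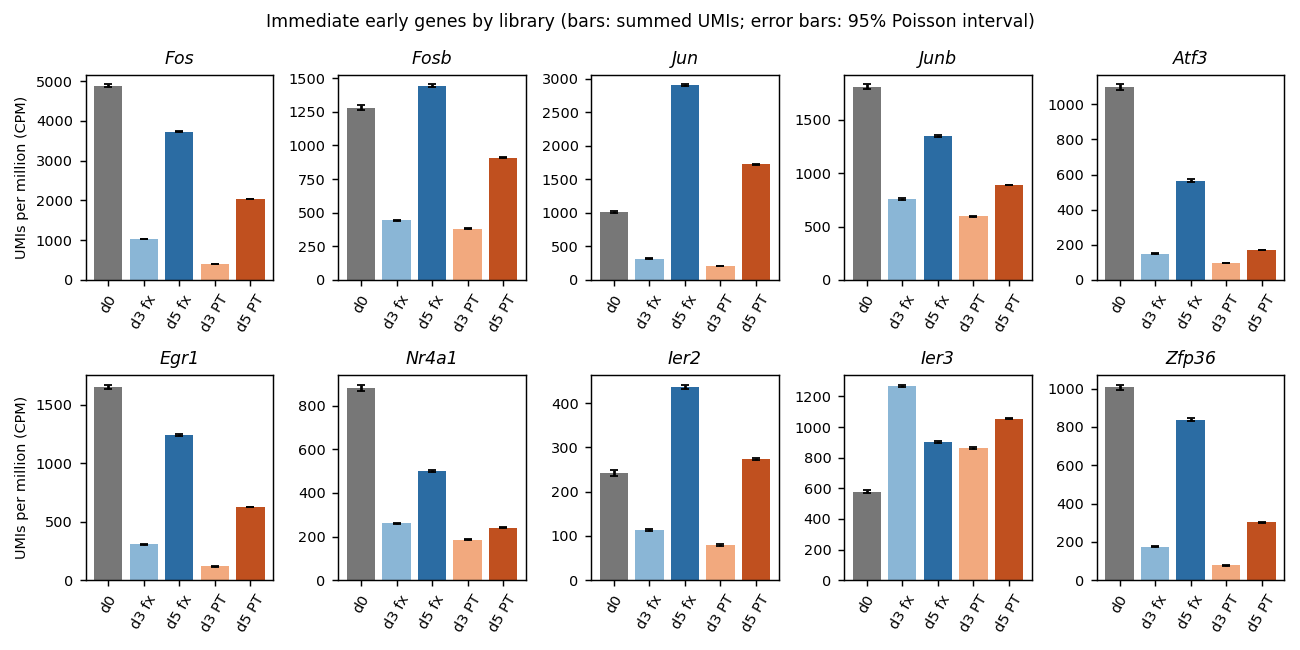
Level of each immediate early gene in the 5 libraries, in CPM (vertical axes from 0, each panel with its own scale), with exact Poisson 95% intervals as error bars; fx, fracture, PT, polytrauma. The d3 PT bar is the lowest in 9 panels, and in 8 of them the d3 fx bar is next (for example 392 and 1035 CPM for *Fos*), *Nr4a1* being the exception. *Ier3* is lowest at d0, with 579 CPM. How many of all genes are lowest in each library was not counted.

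The FOS and JUN families pair to form the transcription factor AP-1. *Fos* (chr12:85473890-85477273), the founding gene of the class, was at 4885 CPM at d0, 1035 at d3 post-fracture, 3727 at d5 post-fracture, 392 at d3 post-polytrauma and 2035 at d5 post-polytrauma. Its highest and lowest libraries, d0 and d3 post-polytrauma, lay 12.5-fold apart. *Fosb* (chr7:19302696-19310051), which codes for a FOS paralog, was at 1281, 443, 1443, 382 and 908 CPM in the same order of libraries. The 2 d3 libraries were close for *Fosb*, and its range was narrower than that of *Fos*, 3.78-fold.

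*Jun* (chr4:95049034-95052222), the main partner of FOS, was at 1012 CPM at d0, 319 at d3 post-fracture, 2904 at d5 post-fracture, 210.2 at d3 post-polytrauma and 1727 at d5 post-polytrauma. Unlike *Fos*, it was higher in both d5 libraries than at d0. *Junb* (chr8:84974484-84978718), whose product can hold back JUN activity, was at 1810, 758, 1350, 595 and 888 CPM in the same order, with d0 highest and a range of 3.04-fold. *Atf3* (chr1:191170296-191218039), a stress-induced factor of the ATF/CREB family that pairs with JUN proteins, was at 1098, 149.6, 566, 95.6 and 171 CPM. *Atf3* at d5 post-polytrauma was near its level at d3 post-fracture and above that at d3 post-polytrauma, whereas *Jun* in that library was well above both.

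The balance of *Jun* and *Junb* shifted with the barcode set. There were 0.559 *Jun* UMIs per *Junb* UMI at d0, 0.421 at d3 post-fracture and 0.353 at d3 post-polytrauma, but 2.15 at d5 post-fracture and 1.94 at d5 post-polytrauma. The other *Jun* gene, *Jund*, which was not among the 10, went further in the same direction, with 353 CPM at d0, 107 at d3 post-fracture, 91.0 at d3 post-polytrauma, 1487 at d5 post-fracture and 1219 at d5 post-polytrauma. A UMI ratio depends on how well each messenger is captured, so only its change between libraries is described. Within one barcode set the ratio differed less than between the sets, and whether the day or the barcode set goes with it cannot be told apart.

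Among the FOS genes, *Fos* UMIs per *Fosb* UMI were 3.81 at d0, 2.33 at d3 post-fracture, 2.58 at d5 post-fracture, 2.24 at d5 post-polytrauma and 1.02 at d3 post-polytrauma, where *Fos* no longer exceeded *Fosb* appreciably. *Fosl1*, a FOS paralog with slower induction, ran against the group: it was at 81.0 CPM at d0, 119.7 and 225 CPM at d3 post-fracture and d3 post-polytrauma, and 17.9 and 44.5 CPM at d5. Of all UMIs from the 8 AP-1 genes counted (*Fos*, *Fosb*, *Fosl1*, *Fosl2*, *Jun*, *Junb*, *Jund* and *Atf3*), *Fos* held 45.0% at d0 (44.8 to 45.2) and 18.7% at d3 post-polytrauma (18.6 to 18.9). *Fosl1* held 0.746% and 10.7% in these libraries, and *Junb* 16.7% and 28.4%. The AP-1 transcripts at d3 post-polytrauma were thus a smaller share of all UMIs than at d0 and also differently composed.

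*Egr1* (chr18:34859823-34864984), a zinc finger factor induced through SRF, was at 1651 CPM at d0, 308 at d3 post-fracture, 1243 at d5 post-fracture, 118 at d3 post-polytrauma and 625 at d5 post-polytrauma. Its order of libraries was that of *Fos*, and its range, 14-fold, was the widest of the 10. *Nr4a1* (chr15:101254269-101274795), an orphan nuclear receptor whose activity is set largely by its amount, was at 883, 261, 499.7, 185 and 241 CPM. *Nr4a1* was the only one of the 10 in which d5 post-polytrauma lay below d3 post-fracture apart from *Ier3*.

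*Zfp36* (chr7:28376784-28380253) codes for tristetraprolin, which binds AU-rich elements and speeds the decay of cytokine and early gene messengers. It was at 1006 CPM at d0, 174 at d3 post-fracture, 838 at d5 post-fracture, 77.3 at d3 post-polytrauma and 302 at d5 post-polytrauma. *Ier2* (chr8:84661331-84662852), which codes for a small nuclear regulator, was at 243, 114, 437, 79.7 and 274 CPM, and like *Jun* it was higher in both d5 libraries than at d0.

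*Ier3* (chr17:35821684-35822923), which codes for a stress-inducible regulator of cell survival and is also a target of NF-kB, had a pattern of its own. It was at 579 CPM at d0, 1270 at d3 post-fracture, 903 at d5 post-fracture, 861 at d3 post-polytrauma and 1055 at d5 post-polytrauma. Thus it was lowest at d0, where 6 of the other 9 genes were highest, and highest at d3 post-fracture. Its range was the narrowest, 2.19-fold. *Ier3* UMIs per *Fos* UMI were 0.118 at d0 and 2.20 at d3 post-polytrauma, with 1.23 at d3 post-fracture, 0.242 at d5 post-fracture and 0.519 at d5 post-polytrauma.

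In d3 post-fracture against d0, both of 1 barcode set and both under their deposited labels, 9 of the 10 genes were at least 2-fold lower and *Ier3* was at least 2-fold higher. Over the 9388 genes with a mean of at least 5 CPM, which include all 10, 23.2% were at least 2-fold lower and 11.5% at least 2-fold higher. The median log2 ratio of the 10 genes was -1.71, against -0.25 for all genes tested. *Atf3* was 7.34-fold lower (7.18 to 7.50), *Zfp36* 5.78-fold, *Egr1* 5.36-fold and *Fos* 4.72-fold, whereas *Ier2*, nearest to the 2-fold limit, was 2.12-fold lower (2.05 to 2.20). *Ier3* was 2.19-fold higher (2.15 to 2.24). Within cell classes, described below, the median log2 ratio was -0.71 in FAP/MP-like, -1.75 in tenocyte-like and -0.71 in pericyte-like cells. The difference was thus smaller within FAP/MP-like and pericyte-like cells. Only 4 genes were at least 2-fold lower in FAP/MP-like cells and 3 in pericyte-like cells, against 8 in tenocyte-like cells. Here and in the comparisons below, the shares of all genes apply to all cells and to scaling by the total. No such share was computed for the classes or for other scaling, so counts under other scaling have none beside them. Scaling by the median of gene ratios in place of the total left 6 genes at least 2-fold lower and moved the median to -1.13. The median of all genes then lay at 0.29, so relative to all genes the 10 stood at -1.42 in place of -1.46.

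In d5 against d3 post-fracture, 7 genes were at least 2-fold higher and none lower, against 30.0% and 3.99% of all genes tested. The median log2 ratio was 1.88 against 0.50. *Jun* was 9.11-fold higher (9.0 to 9.2), *Zfp36* 4.82-fold, *Egr1* 4.04-fold and *Fos* 3.60-fold. *Nr4a1*, 1.92-fold, and *Junb*, 1.78-fold, stayed just under the limit, and *Ier3* was 1.41-fold lower. With median-of-ratios scaling 6 genes were at least 2-fold higher and 1, *Ier3*, at least 2-fold lower, and the median was 1.15. With the deposited labels, which put the other d3 library in the place of d5 post-fracture, the median log2 ratio was -0.58, with no gene at least 2-fold higher and 3 at least 2-fold lower.

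In d5 against d3 post-polytrauma, 6 genes were at least 2-fold higher and none lower, against 22.3% and 2.96% of all genes tested, with a median of 1.51 against 0.42. This comparison shares no library with the previous one. *Jun* was 8.22-fold higher (8.10 to 8.33), *Egr1* 5.30-fold, *Fos* 5.19-fold, *Zfp36* 3.91-fold, *Ier2* 3.44-fold and *Fosb* 2.38-fold. *Atf3*, *Junb*, *Nr4a1* and *Ier3* were 1.79-fold, 1.49-fold, 1.30-fold and 1.23-fold higher, and under median-of-ratios scaling *Nr4a1* and *Ier3* changed sign, to log2 ratios of -0.11 and -0.19. With the deposited labels the median log2 ratio was -0.81, with 3 genes at least 2-fold lower and none higher.

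Polytrauma against fracture was compared at each day, within 1 barcode set. At d3 all 10 genes were lower after polytrauma, and *Fos*, *Egr1* and *Zfp36* were at least 2-fold lower, against 1.10% of all genes tested (1.25% were at least 2-fold higher, and none of the 10). *Fos* was 2.64-fold lower (2.61 to 2.67), *Egr1* 2.61-fold and *Zfp36* 2.25-fold, while *Fosb* was 1.16-fold lower. The median log2 ratio was -0.58 against -0.03. The share of all genes lower by any amount was not counted, at d3 or at d5. Within tenocyte-like cells *Ier3* was higher after polytrauma, with a log2 ratio of 0.32, and 9 genes were lower, with a median of -0.75. Within pericyte-like cells *Fos* and *Jun* were higher, at 0.25 and 0.23, and 8 genes were lower, with a median of -0.37. The d3 post-fracture library also served in the comparisons with d0 and d5.

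At d5, 9 of the 10 were lower after polytrauma, 3 of them at least 2-fold, against 5.93% of all genes tested (1.05% were at least 2-fold higher, and none of the 10). *Atf3* was 3.30-fold lower (3.25 to 3.36), *Zfp36* 2.78-fold and *Nr4a1* 2.08-fold. *Egr1*, 1.99-fold lower (1.97 to 2.01), lay at the limit, and *Ier3* was 1.17-fold higher. The median log2 ratio was -0.81 against -0.01. Within pericyte-like cells the median was -0.40, and no gene was at least 2-fold lower. There *Junb*, *Nr4a1* and *Atf3* were higher after polytrauma, with log2 ratios of 0.49, 0.19 and 0.16, and 7 genes were lower. With the deposited labels these comparisons pair libraries across the barcode sets and turn round, with medians of 1.88 at d3, where 7 genes were at least 2-fold higher, and 1.51 at d5, where 6 were.

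**Figure D2:**
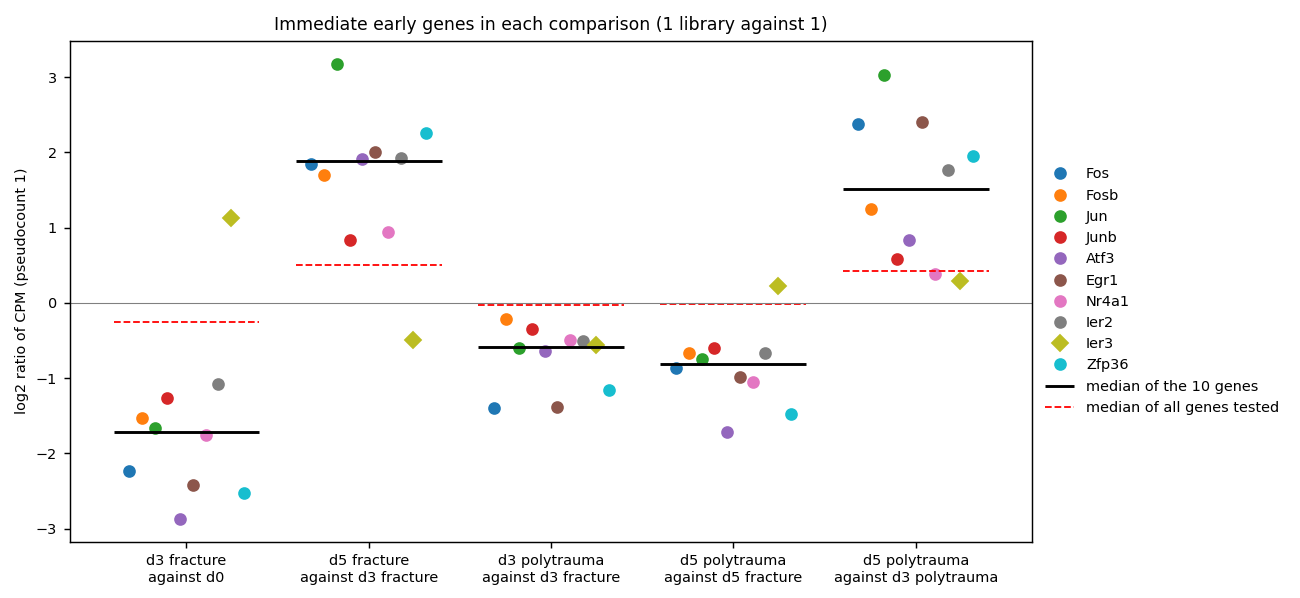
log2 ratio of CPM (pseudocount 1) of each gene in the 5 comparisons, 1 library against 1; circles and the diamond (*Ier3*) are genes, black lines the median of the 10 genes and red dashed lines the median of the 9388 genes tested. In d3 post-fracture against d0 the 9 circles lie between -2.87 and -1.08 and *Ier3* at 1.13.

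Depth per cell differed between libraries, so 2000 UMIs were drawn from each cell that had as many (from 1438 cells at d5 post-fracture to 11517 at d5 post-polytrauma). At this equal depth *Fos* was found in 85.9% of cells at d0, 64.3% at d3 post-fracture, 91.6% at d5 post-fracture, 31.5% at d3 post-polytrauma and 81.6% at d5 post-polytrauma. Without the drawing these shares were 91.0%, 91.0%, 97.8%, 67.5% and 94.0%, so that most cells of every library held a *Fos* transcript. *Zfp36* was found in 69.2%, 27.7%, 61.5%, 13.1% and 39.0% of the drawn cells in the same order, and *Atf3* in 66.4%, 24.5%, 42.8%, 16.0% and 22.7%. *Ier3* was found in 49.8% at d0 and in 63.2% to 73.3% of the others. No cell type that lacks these genes was available to measure transcripts from free RNA in the droplets.

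A cell held a median of 23 UMIs of the 10 genes per 2000 drawn at d0, 9 at d3 post-fracture, 29 at d5 post-fracture, 5 at d3 post-polytrauma and 15 at d5 post-polytrauma. The difference lay in the bulk of the cells and not in a few: the 10% of cells with the most held 22.7% to 32.4% of these UMIs in each library. At least 5 of the 10 genes were detected together in 84.3% of cells at d0 (83.1 to 85.4), 49.2% at d3 post-fracture, 83.0% at d5 post-fracture, 24.8% at d3 post-polytrauma and 73.0% at d5 post-polytrauma. Cells with no UMI of any of the 10 made up 0.540% at d0 and 6.18% at d3 post-polytrauma (5.59 to 6.81).

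**Figure D3:**
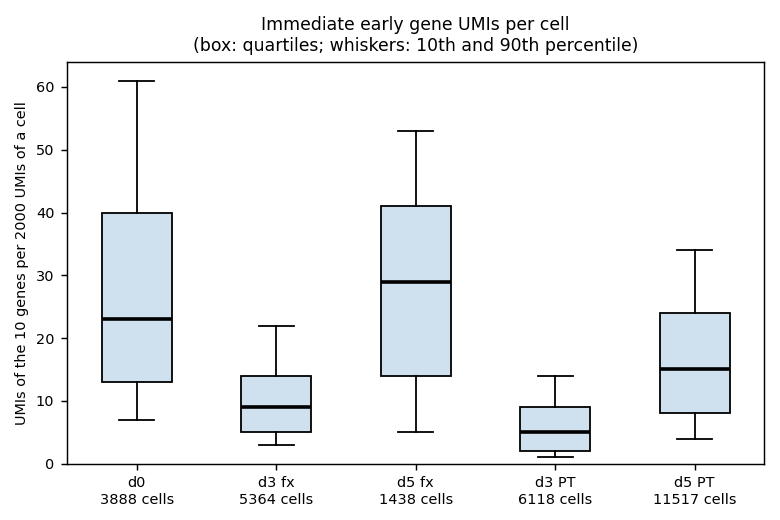
UMIs of the 10 genes per cell after 2000 UMIs were drawn from each cell; boxes span the quartiles with the median as a line, whiskers the 10th and 90th percentile, and cell numbers stand below. The median is 5 at d3 PT and 29 at d5 fx, where the box (14 to 41) overlaps that of d0 (13 to 40).

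Within a library the 9 genes other than *Ier3* were weakly to moderately correlated across cells. The median Pearson r of their 36 pairs was 0.25 at d0, 0.23 at d3 post-fracture, 0.38 at d5 post-fracture, 0.21 at d3 post-polytrauma and 0.25 at d5 post-polytrauma. The 9 pairs with *Ier3* had medians of 0.12, 0.08, 0.30, 0.10 and 0.27. *Ier3* was therefore as much part of the group as the others at d5 post-polytrauma, and less so at d0 and d3. The points are cells of 1 library drawn to equal depth, and the values are a description.

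Over 7396 genes, the 8 outside the 10 whose levels went most with the summed UMIs of the group across cells were *Btg2*, *Socs3*, *Dusp1*, *Klf4*, *Klf2*, *Klf6*, *Nfkbia* and *Cxcl1*, with a mean r over the 5 libraries from 0.34 to 0.26. *Dusp1* codes for a phosphatase that ends MAP kinase signals, *Socs3* for an inhibitor of cytokine receptors, *Nfkbia* for the inhibitor of NF-kB, and *Btg2* for an antiproliferative protein. All but *Cxcl1*, a chemokine gene, were on the list of other immediate early genes. r was highest at d5 post-fracture for *Klf4*, 0.59, and *Cxcl1* had r = 0.08 at d0 and 0.33 at d3 post-polytrauma.

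Cells were clustered in each library without the 10 genes or the other lists, which gave 50 clusters, 32 of them named from markers. At d0 the summed level of the 10 genes differed between clusters of FAP/MP-like cells, from 8814 CPM in a cluster led by *Mrgprg*, *Smpd3* and *Pi16* (655 cells) to 21740 CPM in one led by *G0s2*, *Hsd11b1* and *Cmklr1* (498 cells). Between these clusters *Fos* went from 2579 to 8481 CPM and *Egr1* from 930.4 to 3545 CPM, whereas *Atf3* was at 1137 and 1150 CPM. Heat shock genes, described below, were also unequal there, at 15283 and 33619 CPM in sum.

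Tenocyte-like cells at d0 (388 cells) held 19254 CPM of the 10 genes, with *Fos* at 8847 CPM, and pericyte-like cells (750 cells) 10953 CPM, with *Fos* at 2360 CPM. The pericyte-like cells were not low in every gene: their *Nr4a1*, at 1306 CPM, and *Ier3*, at 893 CPM, were above the FAP/MP-like values of 733 and 414 CPM. Their *Jun* was at 444 CPM against 1044 CPM. At d5 post-fracture the 124 chondrocyte-like cells (defined by *Col2a1*, *Acan* and other cartilage genes) held 6908 CPM of the 10 genes, with *Zfp36* at 193 CPM and *Ier3* at 241 CPM. The 342 FAP/MP-like cells of that library held 20216 CPM, with *Zfp36* at 1577 CPM and *Ier3* at 1130 CPM. The lowest class of all was the 223 hematopoietic-like cells of d3 post-polytrauma, with 1335 CPM.

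**Figure D4:**
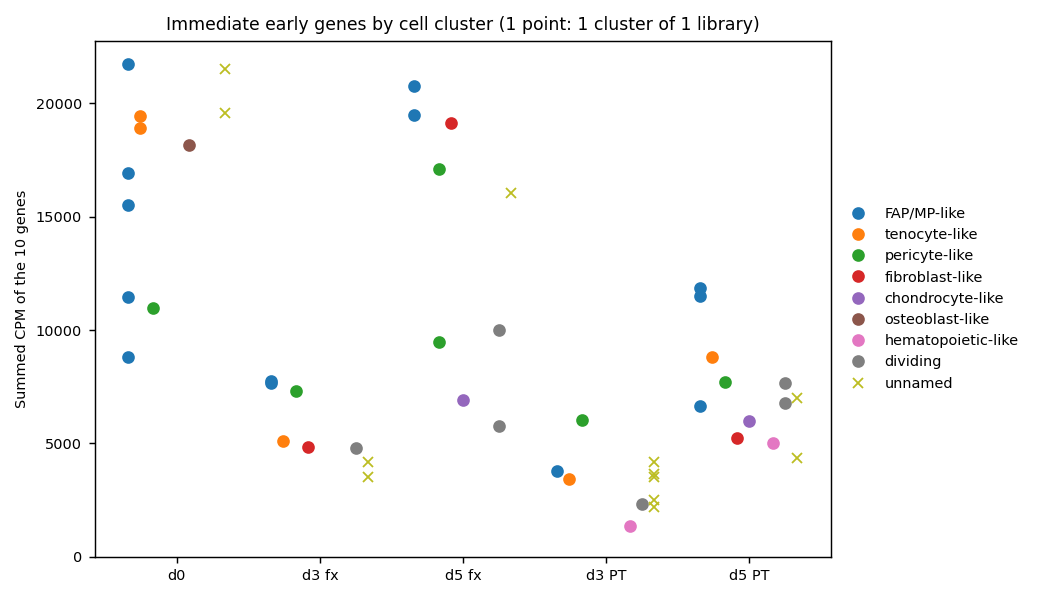
Summed CPM of the 10 genes (vertical axis from 0) in each of the 50 clusters, grouped by library and coloured by the class named from markers; fx, fracture, PT, polytrauma. All clusters at d3 lie below 8814 CPM, the lowest cluster of d0, and the d5 fx clusters run from 5774 to 20742 CPM.

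Within FAP/MP-like cells the libraries kept their order except that d5 post-fracture lay above d0, and these cells were at 13827 CPM at d0, 7734 at d3 post-fracture, 20216 at d5 post-fracture, 3771 at d3 post-polytrauma and 10406 at d5 post-polytrauma. In these cells d3 post-fracture lay nearer to d0, with a median log2 ratio of -0.71, against -1.71 in all cells, and -0.27 for all genes tested. d3 post-polytrauma lay further below d3 post-fracture, with a median of -1.31 against -0.58 in all cells. A cluster of 1607 cells of d3 post-polytrauma had 4 FAP/MP markers raised but stayed unnamed, so it is outside this class. That cluster held 3662 CPM of the 10 genes, with *Fos* at 582 and *Zfp36* at 113 CPM. The makeup of the class may thus differ between these libraries. *Fos* in FAP/MP-like cells was at 4444, 1925, 4898, 407 and 2461 CPM in the order given. *Zfp36* was at 1015, 367, 1577, 79.6 and 431 CPM, and *Ier3* at 414, 1270, 1130, 1082 and 1378 CPM. *Ier3* was thus lowest at d0 in this class too. In tenocyte-like cells it was not, at 907 CPM at d0, 769 at d3 post-fracture, 962 at d3 post-polytrauma and 921 at d5 post-polytrauma.

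Pericyte-like cells held 10953 CPM at d0, 7330 at d3 post-fracture, 9683 at d5 post-fracture, 6018 at d3 post-polytrauma and 7695 at d5 post-polytrauma. They numbered 55 to 750 cells, and at d5 post-fracture they came from unlike clusters. One of 286 cells led by *Rgs5*, *Col18a1* and *Actg2* was at 9454 CPM, with *Junb* at 902 and *Nr4a1* at 311 CPM. *Rgs5* also led the pericyte-like clusters of d3 post-fracture and of both post-polytrauma libraries. The other cluster of d5 post-fracture, of 19 cells, was led by *Myh11* and was at 17123 CPM, with *Junb* at 2852 and *Nr4a1* at 1004 CPM. *Myh11* was also among the leading genes of the pericyte-like clusters of the other 4 libraries. At d3 post-fracture *Junb* was at 1967 and *Nr4a1* at 744 CPM, between the 2 clusters of d5 post-fracture, so the direction of both genes depends on which cluster is taken. For the class as a whole the median log2 ratio was 0.18 in d5 against d3 post-fracture, beside 1.53 in FAP/MP-like cells. In d5 against d3 post-polytrauma it was 0.13, beside 1.58 in FAP/MP-like cells. In the median gene the d5 level was thus little above the d3 level for the class as a whole after either injury. The *Myh11*-led cluster of d5 post-fracture, at 17123 CPM, lay well above the 7330 CPM of d3 post-fracture. The pericyte-like cells of d3 post-fracture had a median of 4647 UMIs, and those of d5 post-fracture 28422. The part of depth in this comparison was not tested. *Ier3* in pericyte-like cells did not follow that of FAP/MP-like cells either, and was highest at d0, with 893 CPM, against 593 to 765 CPM in the other libraries. Dividing cells held 4804 CPM at d3 post-fracture, 8312 at d5 post-fracture, 2340 at d3 post-polytrauma and 7560 at d5 post-polytrauma, in each case below the FAP/MP-like cells of the library. The dividing cells of d5 post-fracture joined a cluster of 73 cells with 4 chondrocyte markers raised (5774 CPM) and one of 135 cells without this profile (9994 CPM). The dividing clusters of d5 post-polytrauma did not have it either, so the median log2 ratio of polytrauma to fracture, -0.27, compares classes of partly unlike makeup. The chondrocyte-like cluster of d5 post-polytrauma had a median of 1429 UMIs per cell, and 64.0% of its barcodes were shared with the other d5 library, so its value, 5971 CPM, was not compared.

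Depth within a library moved with the genes in most libraries. In terciles of cells by UMIs, the summed level was lower in deeper cells at d0 (16090, 14830 and 13613 CPM), d3 post-fracture (7258, 5154 and 3999 CPM), d3 post-polytrauma (4225, 3163 and 2513 CPM) and d5 post-polytrauma (10287, 9387 and 7001 CPM). At d5 post-fracture they were 15460, 16096 and 12135 CPM. The part of depth in these levels was not tested. The mitochondrial share gave no common order: the tercile with the highest share was the lowest at d0 (12939 CPM) and d5 post-fracture (11857 CPM), and the highest at d3 post-fracture (5437 CPM). Mitochondrial genes took 4.09% of UMIs at d0 and 5.17% and 3.48% at d5 post-fracture and post-polytrauma, against 2.01% and 2.16% at d3. With their UMIs left out of the total, no median of the comparisons changed direction. The median was -1.74 in place of -1.71 in d3 post-fracture against d0. In d5 against d3 post-fracture it was 1.93 in place of 1.88. Any other part of the mitochondrial share in the result was not tested.

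The other immediate early genes, a list of 42 of which 41 passed the minimum level, were also lowest in sum in both d3 libraries. They summed to 15166 CPM at d0, 6068 at d3 post-fracture, 15292 at d5 post-fracture, 5581 at d3 post-polytrauma and 9560 at d5 post-polytrauma. In d3 post-fracture against d0, 28 were at least 2-fold lower and 1, *Ptgs2*, higher, against 23.2% and 11.5% of all genes tested. The 4-fold changes there included *Irf1*, 17.6-fold lower, and *Cebpb*, *Cebpd* and *Ppp1r15a*, 10.2-fold, 10.2-fold and 10.1-fold lower. In d5 against d3 post-fracture, 26 were at least 2-fold higher and 3 lower, *Fosl1*, *Nfkbia* and *Phlda1*, against 30.0% and 3.99% of all genes tested. *Klf2*, a flow-responsive factor, was 29.3-fold higher and *Cebpd* 27.1-fold, while *Fosl1* was 6.70-fold lower.

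In d3 post-polytrauma against d3 post-fracture, 3 of these genes were at least 2-fold lower (*Dusp1*, *Cyr61* and *Ctgf*, against 1.10% of all genes) and none 2-fold higher. Of the 41, 17 were higher by any amount, where none of the 10 was. The share of all genes tested that were higher by any amount was not counted. Their median log2 ratio was -0.06, beside -0.58 for the 10 genes and -0.03 for all genes tested. At d5, 8 were at least 2-fold lower after polytrauma (against 5.93% of all genes) and 1, *Fosl1*, higher, with a median of -0.56 beside -0.81. A d0 level below both d3 levels, as in *Ier3*, was seen in 6 of the 41, *Sgk1*, *Ptgs2*, *Fosl1*, *Phlda1*, *Plk2* and *Egr3*. The share of all genes tested with this order was not counted, so the 6 are named as examples only. *Sgk1* was at 306 CPM at d0 and 596 and 611 CPM at d3 post-fracture and post-polytrauma, and *Ptgs2* at 149 CPM at d0 and 352 and 245 CPM at d3.

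Heat shock genes are another group that responds within minutes, through HSF1, to heat and proteotoxic stress, and they followed the 10 genes only in part. Both groups were highest in sum at d0 and lower at d3 post-fracture, with median log2 ratios of -1.32 and -1.71. In d5 against d3 post-fracture the medians were -1.01 and 1.88. Across cells, *Hspa1a* and *Dnajb1* ranked 19 and 20 of the genes outside the 10 by mean r with the group, both at 0.20. The 13 heat shock genes summed to 23049 CPM at d0, 9781 at d3 post-fracture, 9343 at d3 post-polytrauma, 5155 at d5 post-fracture and 6481 at d5 post-polytrauma. They were lowest where the immediate early genes were high, at d5 post-fracture. In d3 post-fracture against d0, 9 were at least 2-fold lower, against 23.2% of all genes tested, and in d5 against d3 post-fracture, 7 were at least 2-fold lower and none higher, against 3.99% and 30.0%. *Hspa1a*, which codes for the inducible HSP70, was at 4830 CPM at d0, 575 and 448 CPM at d3 post-fracture and post-polytrauma, and 50.3 and 33.4 CPM at d5. *Hspa1a* has a near-identical copy in *Hspa1b* (913 CPM at d0), and the reads of these genes could not be assigned with certainty.

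The factors that switch on immediate early genes are coded by genes outside the class. Of 14 genes for SRF, its partners, CREB1, ATF1 and MAP kinases, 1, *Mkl2*, was at least 2-fold lower and none higher in d3 post-fracture against d0 (23.2% and 11.5% of all genes), and 1, *Map2k2*, was higher and none lower in d5 against d3 post-fracture (30.0% and 3.99%). In d5 against d3 post-polytrauma 3 were higher (*Map2k2*, *Mapk14* and *Elk3*) and 1, *Map2k1*, lower (22.3% and 2.96%), and none passed the limit between polytrauma and fracture at the same day. *Srf* was at 29.9 CPM at d0, 17.9 at d3 post-fracture, 25.1 at d5 post-fracture, 14.3 at d3 post-polytrauma and 28.4 at d5 post-polytrauma. Of 7 feedback genes of MAP kinase signalling, 6 passed the minimum level, and 4 of them (*Spry1*, *Spry2*, *Spry4* and *Spred2*) were at least 2-fold lower in d3 post-fracture against d0, again beside 23.2% of all genes. *Spry1* went from 73.9 to 9.70 CPM and *Spry4* from 22.3 to 1.79 CPM.

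**Figure D5:**
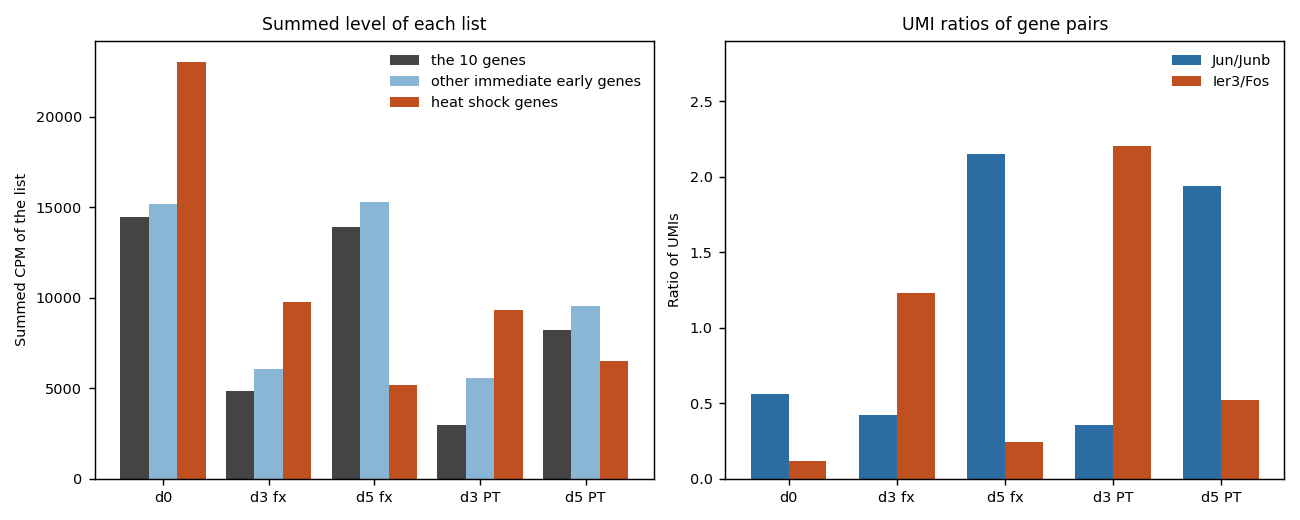
Left, summed CPM of the 10 genes, the 42 other immediate early genes and the 13 heat shock genes in each library; right, *Jun* UMIs per *Junb* UMI and *Ier3* UMIs per *Fos* UMI; fx, fracture, PT, polytrauma. The heat shock bars are lowest at d5 fx (5155 CPM), where the bar of the 10 genes stands at 13911 CPM, and *Jun* exceeds *Junb* in the d5 libraries only.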

How the data were processed

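Cells sorted from 5 libraries were profiled with a 3′ droplet kit. According to the labels, the authors used Cell Ranger, Seurat 3.1.2 and mm10, and they deposited raw UMI counts per gene and barcode, which were used without normalization other than scaling to the library total (CPM). UMIs remove PCR copies, but droplet capture is partial, so a missing gene is not an absent one. Total counts were 18247307 to 204474562 UMIs per library. Gene positions are from GENCODE M21 (GRCm38), in which 30934 of 31055 identifiers were found.

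UMIs were summed over kept cells. Intervals are exact Poisson for levels and Clopper-Pearson for shares (95%). log2 ratios used a pseudocount of 1 and genes with a mean of at least 5 CPM. Cells were drawn to 2000 UMIs without replacement (seed 1). Clusters came from scanpy 1.11.5 with leidenalg 0.10.2 (2000 variable genes, 20 components, 15 neighbours, resolution 0.5). A name needed at least 3 of a type's markers, by a rule that was changed once the clusters were known. Doublets were removed only as an alternative. A barcode present in another library counted as shared when its UMIs here were under 10 times those there. The fold calculation was tested on simulated data.

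All 10 genes are named, and from each list the 5 most abundant and those at least 4-fold changed were eligible, with the 8 genes most alike within cells. *Srf*, *Sgk1* and the genes given for counts of 6 or fewer outside this rule were named after their values had been seen. The 10 genes and the lists were chosen with earlier results of these data known. Python 3.11.15, scipy 1.17.1, numpy 2.4.6 and pandas 2.3.3 were used, and figures were drawn with matplotlib 3.10.9.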

Additional observations from a re-analysis of the deposited data

Results flagged for a closer look

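*Ier3* went opposite ways in paired comparisons, and these differences were not tested, since each condition has 1 library. From d3 to d5 its log2 ratio was -0.49 post-fracture and 0.29 post-polytrauma, the latter -0.19 under median-of-ratios scaling. Polytrauma against fracture gave -0.56 at d3 and 0.22 at d5. No other gene of the 10 had opposite signs with counting intervals clear of no change in these pairs.

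Barcodes under 1000 UMIs, which were left out except where no minimum was applied, held 13611 CPM of the 10 genes at d5 post-polytrauma (674 barcodes), above the 9940 CPM of such barcodes at d0 and the 8226 CPM of the kept cells of that library. In the other 4 libraries such barcodes lay below the kept cells. The d5 post-polytrauma library shared 944 barcodes with that of d5 post-fracture, whose kept cells held 13911 CPM of the 10 genes. Only 342 kept cells of d5 post-polytrauma had a barcode found in another library, so most of the 944 were among those left out. How many of the 674 were shared was not counted, and the part of sharing in their value was not tested.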

How the results depend on the processing

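With the conditions as deposited, the 4 comparisons that use either reassigned library turned round: the median log2 ratio of the 10 genes was -0.58 in d5 against d3 post-fracture (0 genes at least 2-fold higher, 3 lower), 1.88 in d3 post-polytrauma against d3 post-fracture (7 higher, 0 lower), 1.51 in d5 post-polytrauma against d5 post-fracture (6 higher, 0 lower) and -0.81 in d5 against d3 post-polytrauma (0 higher, 3 lower). The remaining values are given in the order d3 post-fracture against d0, d5 against d3 post-fracture, d3 post-polytrauma against d3 post-fracture, d5 post-polytrauma against d5 post-fracture and d5 against d3 post-polytrauma, and all kept their direction. They were -1.13, 1.15, -0.63, -0.61 and 1.02 under median-of-ratios scaling, with 1 gene, *Ier3*, at least 2-fold lower in d5 against d3 post-fracture. They were -1.45, 1.58, -0.68, -0.79 and 1.40 with cells drawn to 2000 UMIs, and -0.71, 1.53, -1.31, -0.88 and 1.58 in FAP/MP-like cells only. With mitochondrial UMIs left out of the total, the first, the second and the fourth were -1.74, 1.93 and -0.84. Leaving out doublets moved the fourth to -0.82, and leaving out the 6 clusters of lowest depth, a choice made after seeing the data, to -0.80. Leaving out the minimum of 1000 UMIs or the shared barcodes moved no median by more than its counting interval. No paired analysis was possible because each condition has 1 library. With 1 library per condition no value here measures the spread between animals, and each library mixes 2 mice. Why values moved was not tested.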
